A study of Caenorhabditis elegans with 6 samples.

Results

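The genes described here are the 73 of Caenorhabditis elegans whose symbols are math- or bath- followed by a number. They were found by matching the WormBase identifiers of the deposited table, which lists 46778 genes, to their symbols. The RNA came from animals treated with HLB01 (3 libraries) and from Control animals (3 libraries), and HLB01 is known here only by that code name. The title of the series concerns a root extract of Vicatia thibetica, ageing, collagen and stress resistance. Strain, sex, stage, dose, duration and vehicle are not given in the sources used here. Nor is it stated whether replicates came from separate cultures, and p-values then cover only the spread among these libraries, which may be technical. For the treated libraries the titles read HLB01 replicates 1, 2 and 3 while the agent field reads HLB01, HLB02 and HLB03, and the grouping follows the titles.

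MATH is short for meprin and TRAF homology, a fold that binds other proteins, and a BTB domain is a surface through which proteins pair with each other and with the scaffold of a ubiquitin ligase. In bath- genes the symbol stands for a BTB and a MATH domain in the same protein, and in math- genes for a MATH domain. The best studied protein of this design in the worm is MEL-26, which carries neither symbol: it joins the cullin CUL-3 and hands it the katanin subunit MEI-1, so that this microtubule-severing enzyme of the meiotic spindle is destroyed before the first embryonic division. The worm genome holds many MATH-BTB genes in tandem arrays, and for most of them no substrate is known. The domains themselves were not checked here, since the membership rests on the gene symbols alone.

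Expression was given in TPM, an abundance per length of transcript that the authors brought to the same sum in each library, so that levels of different genes can be set beside each other. Of the 73 genes, 46 reached at least 1 TPM in 3 or more libraries and were tested, and 27 lay below. Of the tested genes, 42 reached 1 TPM in all 6 libraries, and 0 passed through libraries of 1 group alone. Read depth is unknown, because TPM keeps no total. HLB01 replicate 3 stood apart on the first principal component of all 12590 tested genes, which held 31.3% of the variance: its score was 32.0, and those of the other 5 libraries were -15.3 to -0.57. Ribosomal RNA took 2123 to 4895 TPM in HLB01 libraries and 530 to 2684 TPM in Control libraries. Summed markers of the intestine lay at 2993 to 3494 TPM in HLB01 libraries and at 3596 to 3983 TPM in Control libraries. Most of that sum was asp-1, with means of 2607 TPM in HLB01 and 3045 TPM in Control libraries. Lower in HLB01 without overlap were asp-1, act-5 (means of 146.5 TPM in HLB01 and 167.8 TPM in Control libraries) and cpr-6 (280 and 336 TPM). The other way without overlap lay vha-6, at 96.4 TPM in HLB01 and 85.2 TPM in Control libraries. Of the 9 tested intestine genes 7 had a negative log2 difference (HLB01 minus Control), with a median of -0.07. All 8 tested muscle genes were negative as well (median -0.20; sums of 308 to 409 TPM in HLB01 and 368 to 395 TPM in Control libraries), as were 6 of 7 early embryo genes (median -0.31; sums of 15.3 to 18.5 TPM in HLB01 and 18.3 to 22.8 TPM in Control libraries). Of these 3 lists 0 genes passed the limma test described below, which called 0.397% of all tested genes. An unadjusted p below 0.05 (limma) was found for 4 of 9 intestine genes (act-5, cpr-6 and asp-1 lower in HLB01, vha-6 higher). It was found for 0 of 8 muscle and 0 of 7 early embryo genes. Among all tested genes that share was 8.32%, and only the intestine list lay above it. Of 12 tested sperm entries 9 were negative (median -0.16), with sums of 192 to 298 TPM in HLB01 and 218 to 302 TPM in Control libraries. Medians were 0.013 for 12 tested germline genes and 0.015 for 7 tested neuron genes. Only 2 of 7 hypodermis genes were tested, with a median of 0.070. Of the sperm, germline, neuron and hypodermis lists 0 genes passed and 0 had an unadjusted p below 0.05 (limma). The part of these library differences in the values below was not tested.

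The math- and bath- genes differed strongly in level and hardly at all between the treatments. The 73 genes together took 1003, 1036 and 1026 TPM in the HLB01 libraries, against 1002, 971 and 1012 TPM in the Control libraries. These sums overlapped between the groups. Between 57.2% and 58.7% of the summed TPM in each library came from the 5 highest genes, bath-42, bath-40, bath-41, bath-30 and bath-44. Since whole animals were extracted, fewer cells that transcribe a gene and less transcript per cell cannot be told apart in any of these values.

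The bath- genes made up most of the expressed part: 31 of 36 were tested, with a median over all 36 of 6.57 TPM, whereas 15 of 37 math- genes were tested, with a median over all 37 of 0.525 TPM. As a share, 63.0% of the family passed the filter, 61.2% of 19725 protein-coding genes and 52.9% of the 170 fbxa- F-box genes, another large family of substrate adaptors of ubiquitin ligases. These shares describe the samples and were not tested. Annotated proteins of the family had a median of 313 residues, with math-31 the shortest at 105 residues and math-33 the longest at 1138 residues.

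Most of the family sits in one stretch of the genome. In the Ensembl annotation of WBcel235, 61 of the 73 genes lie on chromosome II and 58 of them within its first 4 Mb, in the left arm. With a gap of at most 10 kb between neighbours, 48 genes fell into 7 blocks of 3 or more. Among the 58 genes of the left part, 34 were tested, with a median of 1.70 TPM over all 58. Among the 15 genes elsewhere, 12 were tested, with a median of 17.3 TPM over all 15.

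The blocks were far from even in level. The largest, on chromosome II from 1866381 to 1922765, held 18 genes, of which 12 stayed under 1 TPM in every library. In it math-5, math-6, math-7, math-8 and math-9 followed each other with mean levels under 1 TPM, and math-25 was listed at 0 in all 6 libraries, while the last in the row, bath-4, bath-7 and bath-2, averaged 17.05, 6.72 and 16.9 TPM. The block from 3343731 to 3378834 had 7 genes and the highest sum, with bath-30 at a mean of 80.9 TPM and bath-23 at 0.288 TPM. Its sum was 179 to 191 TPM in HLB01 libraries and 180 to 187 TPM in Control libraries. A block of 8 genes from 2014902 to 2046656, running from bath-21 to math-1, summed to 70.6 to 74.1 TPM in HLB01 libraries and 70.9 to 75.02 TPM in Control libraries. Levels of adjacent genes thus ranged widely within a block, and both block sums overlapped between the groups.

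**Figure D1:**
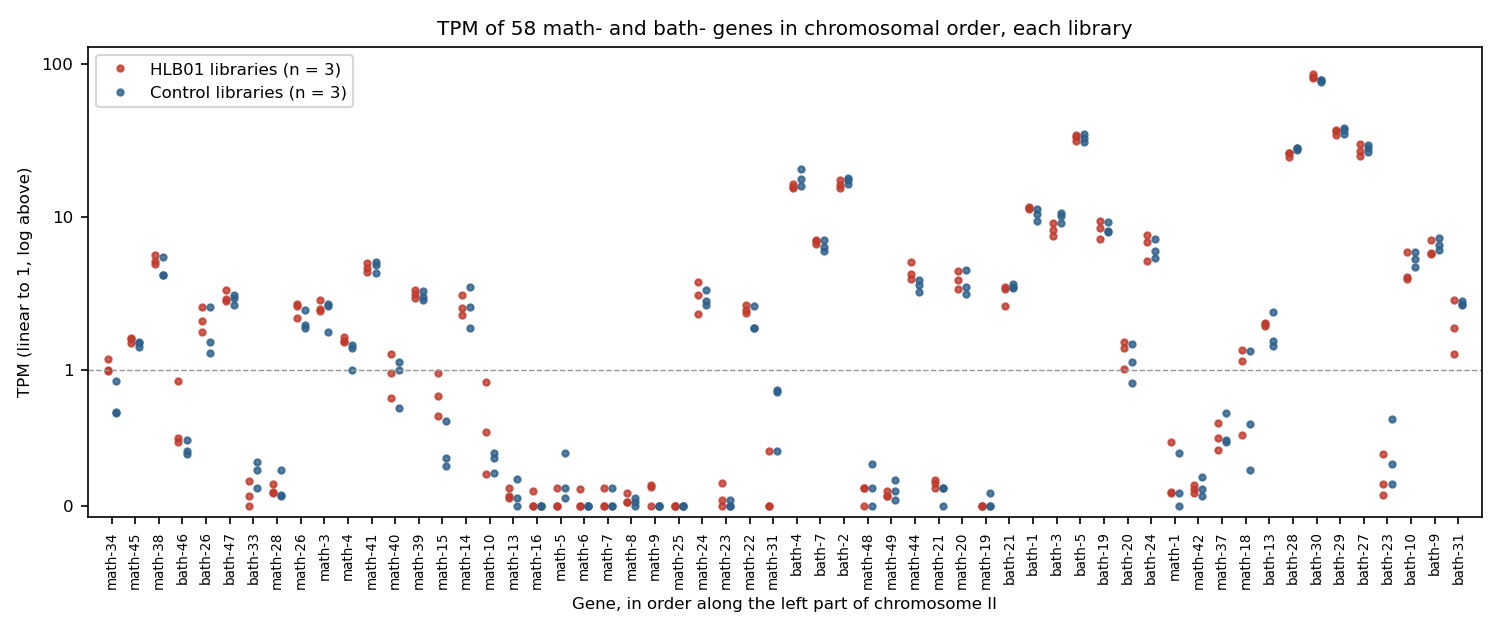
TPM of the 58 math- and bath- genes within the first 4 Mb of chromosome II, in their order along the chromosome, with 1 point per library (HLB01 red, Control blue, n = 3 each; the axis is linear up to 1 TPM and logarithmic above, with a dashed line at 1 TPM). The row of math- genes in the middle of the plot lies near 0, and bath-30 is the highest.

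In the comparison of HLB01 with Control, which asks for transcripts that differ in treated animals, 0 of the 46 tested genes rose and 0 fell. The test was limma with a mean-variance trend on log2(TPM + 1), two-sided, adjusted by the Benjamini-Hochberg method over all 12590 tested genes with a threshold of 0.05. By this rule 0.397% of all tested genes were called, 0.167% higher and 0.23% lower in HLB01, so that in a family of 46 a count of 0 is close to the background. The smallest adjusted p among the 46 was 0.599 (limma), for bath-3. At an unadjusted p below 0.05 there was 1 member, against a background of 8.32%. On the log2(TPM + 1) scale, the change of a gene at low TPM comes out smaller than its TPM ratio.

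The differences were small as well as uncalled. The median log2 difference (HLB01 minus Control) of the 46 was 0.045, against -0.0038 over all tested genes, and 39 of the 46 lay within 0.2 of 0 in either direction. A 95% interval that stayed within 0.5 on the log2 scale on both sides was found for 38 of the 46 genes (82.6%), against 75.8% of all tested genes. For 45 of the 46 the interval stayed within 1, which leaves out 2-fold changes in either direction on this scale, and bath-45 was the exception. The HLB01 values lay wholly above the Control values for 4 members (bath-30, math-44, bath-1 and math-4), where the background is 6.85%, and wholly below them for 1 member (bath-28), where it is 6.99%.

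**Figure D2:**
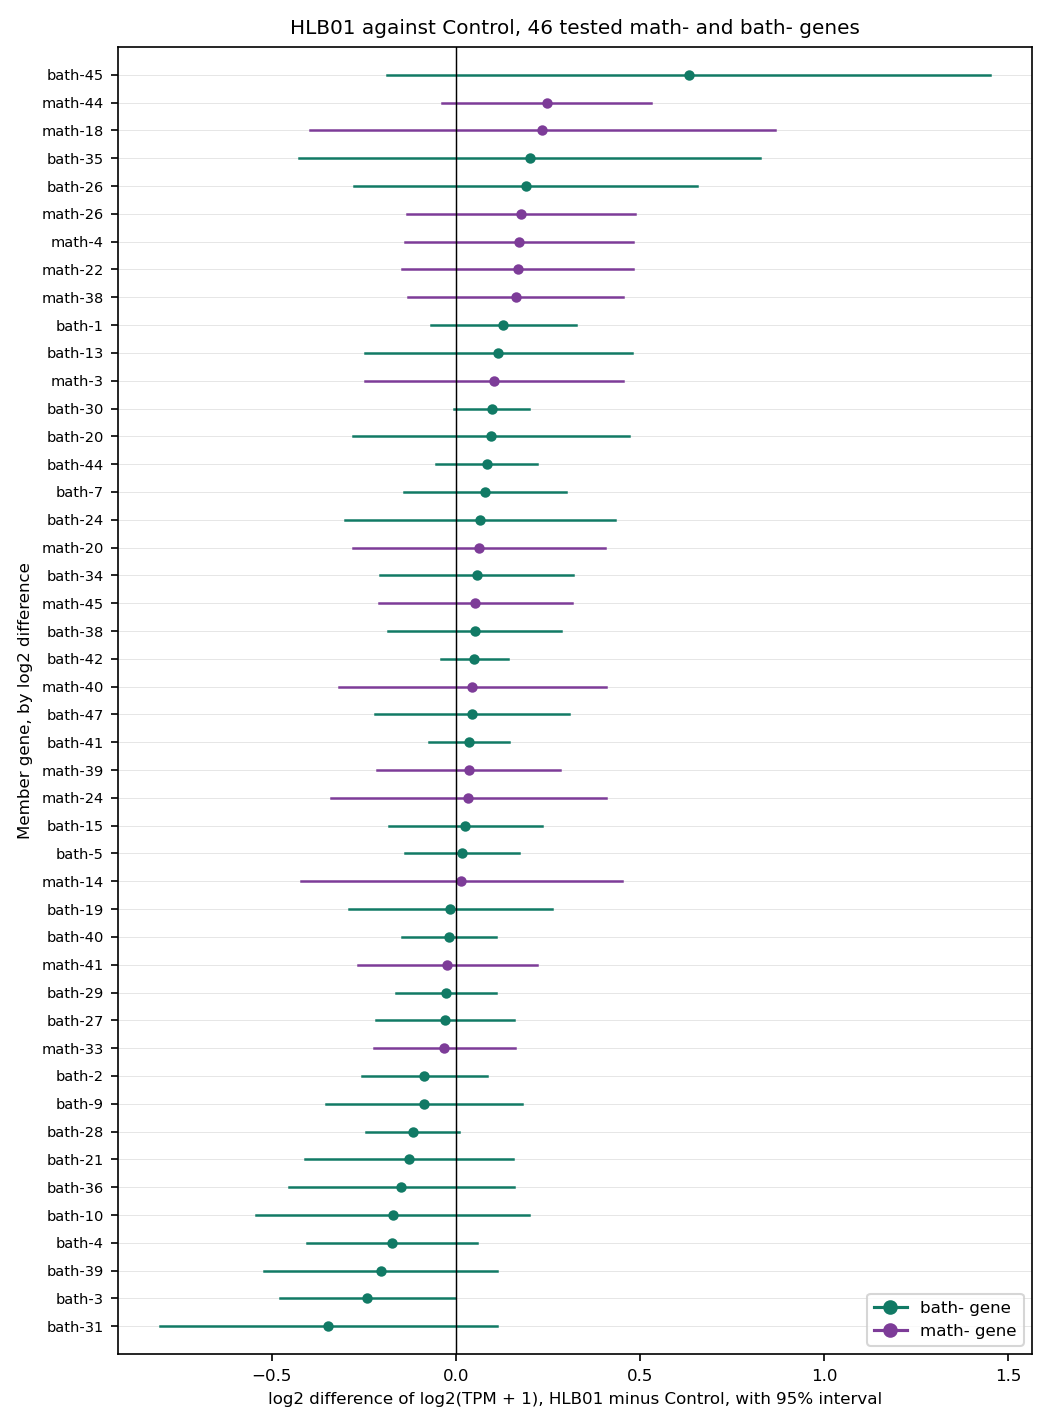
Difference of mean log2(TPM + 1), HLB01 minus Control, for the 46 tested genes (points) with 95% intervals from limma (lines), bath- genes in green and math- genes in purple, sorted by the difference. All points but that of bath-45 lie between -0.35 and 0.25, and the interval of bath-45 is the widest.

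The most abundant members are bath- genes outside the tandem blocks, joined by bath-30. The highest was bath-42 (WBGene00016803, chromosome III, 8161455 to 8163383, minus strand, 4 exons, 410 residues), which had 208, 212 and 206 TPM in HLB01 libraries, against 209, 199 and 197 TPM in Control libraries. It ranked first of the 73 in every library, and the groups overlapped. Its log2 difference was 0.05 ± 0.04 (SE; limma adjusted p = 0.8), with a 95% interval of the fold from 0.972 to 1.10.

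Next came bath-40 (WBGene00013689, chromosome I, 14647782 to 14651288), with 114.7, 119 and 124 TPM in HLB01 libraries, against 124, 113 and 125 TPM in Control libraries. Its log2 difference was -0.02 ± 0.05 (limma adjusted p = 0.957). The values of bath-41 (WBGene00018137, chromosome III, 6720415 to 6722258) were 115.4, 109 and 106 TPM in HLB01 libraries, against 105, 109 and 108 TPM in Control libraries. The ranges of bath-40 and bath-41 met in HLB01 animals, where replicate 1 had bath-41 above bath-40, so these neighbours in the order of levels were not separated there beyond their spread. For bath-41 the log2 difference was 0.03 ± 0.05 (limma adjusted p = 0.884). Lower came bath-44 (WBGene00015567, chromosome II, 7394955 to 7397351), with 68.0, 71.5 and 74.8 TPM in HLB01 libraries, against 68.4, 63.3 and 70.3 TPM in Control libraries. The groups overlapped, and its log2 difference was 0.08 ± 0.06 (limma adjusted p = 0.783).

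In the series of tandem genes, bath-30 (WBGene00017460, chromosome II, 3345218 to 3346378) was the highest, with 82.7, 81.6 and 86.9 TPM in HLB01 libraries, against 76.4, 79.1 and 79.0 TPM in Control libraries. All 3 HLB01 values lay above all Control values, and its log2 difference of 0.10 ± 0.04 did not pass (limma adjusted p = 0.617). Its neighbour bath-28 (WBGene00017461, 3343731 to 3344967, on the same strand, 250 bases away) had 24.9, 26.3 and 26.3 TPM in HLB01 libraries, against 27.6, 28.5 and 28.2 TPM in Control libraries. Here all HLB01 values lay below all Control values, with a log2 difference of -0.12 ± 0.05 that did not pass either (limma adjusted p = 0.628). Of bath-28, 84 bases overlap F14D2.15 on the same strand, a gene at 25.3 TPM in HLB01 and 25.2 TPM in Control libraries.

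One member of the family is of a different kind. MATH-33 is a ubiquitin protease, related to human USP7, and in the worm it is known to take ubiquitin off DAF-16, the transcription factor of insulin signalling and lifespan. Its gene math-33 (WBGene00010406, chromosome V, 11113907 to 11118824, 10 exons) had 60.1, 63.5 and 52.2 TPM in HLB01 libraries, against 63.5, 58.8 and 56.9 TPM in Control libraries. The groups overlapped, with the lowest value in HLB01 replicate 3, and the log2 difference was -0.03 ± 0.08 (limma adjusted p = 0.951; 95% interval of the fold from 0.858 to 1.12). On the other strand it shares 59 bases with scb-1, at 14.8 TPM in HLB01 and 13.03 TPM in Control libraries, and the strand setting of the counting is not known here.

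The largest difference, and the only one over 0.5 on the log2(TPM + 1) scale, was that of bath-45 (WBGene00009247, chromosome II, 13123020 to 13125189, 8 exons, 468 residues). It had 28.5, 51.7 and 35.5 TPM in HLB01 libraries, against 24.4, 14.4 and 38.01 TPM in Control libraries. The highest HLB01 value stood in replicate 2 and the lowest Control value also in replicate 2, and the groups overlapped. The means were 38.6 ± 11.9 TPM in HLB01 and 25.6 ± 11.9 TPM in Control libraries (SD, n = 3 each), with a log2 difference of 0.63 ± 0.35 and a 95% interval from -0.19 to 1.45 (limma adjusted p = 0.709). Leaving out single libraries moved the log2 difference between 0.29, without Control replicate 2, and 0.96, without Control replicate 3. With 0.1 in place of 1 added to the TPM, differences of low genes came out larger. The log2 difference was then 0.66 for bath-45, 0.54 for math-18, 0.35 for bath-35 and -0.498 for bath-31, all uncalled.

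Replicates of bath-45 varied more than those of most genes at its level. Its SD within groups was 0.56 on the log2(TPM + 1) scale, larger than that of 99.3% of the 1907 tested genes within 0.5 log2 of its mean level. The 46 tested genes had a median SD of 0.13, against 0.11 over all tested genes, but these medians are not matched for level. Among members the median SD was 0.18 below a mean of 2 TPM and 0.075 at 10 TPM or more. Set against tested genes within 0.5 log2 of its own level, a member's SD exceeded between 0.175% (math-45) and 99.3% (bath-45) of them. Within the groups bath-45 spanned 1.81-fold among HLB01 libraries and 2.65-fold among Control libraries. By contrast bath-42 spanned 1.03-fold among HLB01 libraries and 1.06-fold among Control libraries.

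**Figure D3:**
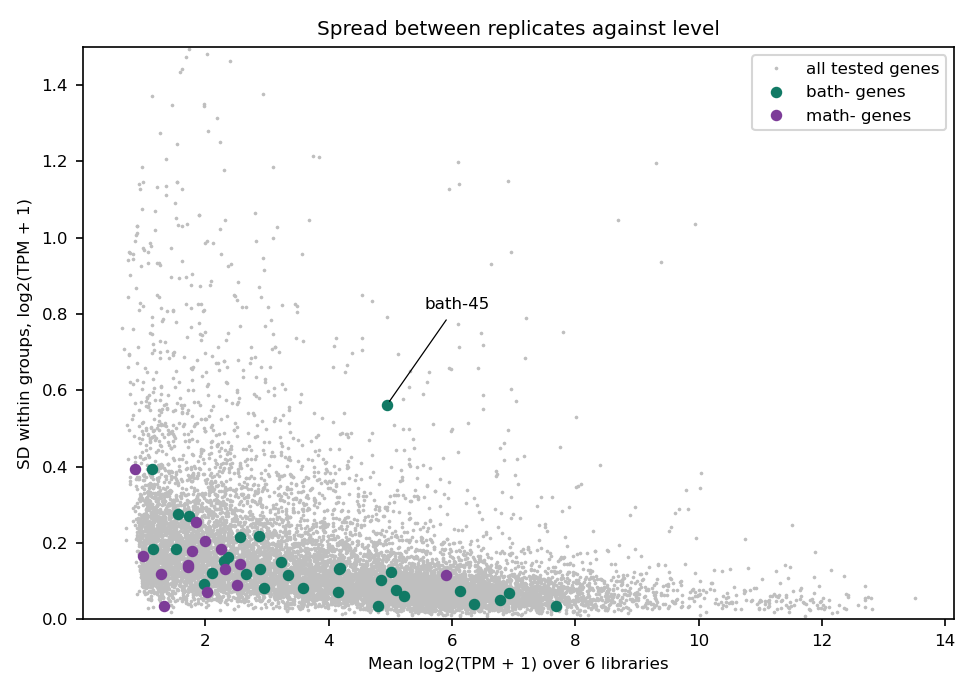
SD within groups of log2(TPM + 1) against the mean log2(TPM + 1) over 6 libraries, for all tested genes (grey), bath- genes (green) and math- genes (purple). The axis ends at 1.5, and 49 tested genes lie above it. The point of bath-45 (SD 0.56) stands above the other members, which follow the grey cloud.

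Among lower members with positive differences, math-44 (WBGene00021193, chromosome II, 1989310 to 1990535) had 3.95, 4.26 and 5.08 TPM in HLB01 libraries, against 3.59, 3.23 and 3.88 TPM in Control libraries. The groups did not overlap, and the log2 difference of 0.25 ± 0.12 did not pass (limma adjusted p = 0.672). For math-18 the values were 1.15, 1.34 and 0.52 TPM in HLB01 libraries, against 1.33, 0.26 and 0.60 TPM in Control libraries, a log2 difference of 0.23 ± 0.27 (limma adjusted p = 0.87). These values overlapped and varied up to 5.15-fold between libraries, and the log2 difference was 0.029 without Control replicate 2 and 0.473 without Control replicate 1. A similar scatter was seen in bath-35, with 0.71, 1.57 and 1.93 TPM in HLB01 libraries, against 1.60, 1.12 and 0.54 TPM in Control libraries (log2 difference 0.20 ± 0.27, limma adjusted p = 0.884).

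Of the negative differences, that of bath-31 (WBGene00017405, chromosome II, 3731973 to 3733181) was the largest. It had 1.27, 2.85 and 1.89 TPM in HLB01 libraries, against 2.68, 2.84 and 2.67 TPM in Control libraries. HLB01 replicate 2 was as high as the Control libraries and the other HLB01 libraries were lower, and the log2 difference was -0.35 ± 0.19 (limma adjusted p = 0.717). It was -0.16 without HLB01 replicate 1 (limma adjusted p = 0.861) and -0.54 without HLB01 replicate 2 (limma adjusted p = 0.414), uncalled in both. The gene with the smallest p, bath-3 (WBGene00019140, chromosome II, 2029236 to 2030467), had 7.56, 8.19 and 9.14 TPM in HLB01 libraries, against 10.7, 9.10 and 10.1 TPM in Control libraries. The highest HLB01 value passed the lowest Control value, so the groups overlapped slightly, and the log2 difference was -0.24 ± 0.10 (unadjusted p = 0.0476, limma adjusted p = 0.599).

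The genes on either side of bath-3 had differences at or above 0. Downstream neighbour bath-1 had 11.5, 11.6 and 11.4 TPM in HLB01 libraries, against 10.5, 11.3 and 9.49 TPM in Control libraries (log2 difference 0.13 ± 0.08, limma adjusted p = 0.756). On the other side bath-5 had 34.7, 33.6 and 31.6 TPM in HLB01 libraries, against 32.9, 34.9 and 30.9 TPM in Control libraries (0.02 ± 0.07, limma adjusted p = 0.968). None of these 3 passed, so they are not shown to differ from each other in response.

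Also negative were bath-39 and bath-4. For bath-39 (WBGene00009137, chromosome V, 13459459 to 13461803) the values were 4.17, 4.34 and 3.02 TPM in HLB01 libraries, against 4.29, 4.63 and 4.70 TPM in Control libraries, a log2 difference of -0.20 ± 0.13 (limma adjusted p = 0.761). Its lowest value again came from HLB01 replicate 3, and without that library the log2 difference was -0.076. For bath-4 (WBGene00018665, chromosome II, 1916713 to 1917962) they were 15.5, 15.7 and 16.6 TPM in HLB01 libraries, against 17.7, 16.04 and 20.8 TPM in Control libraries (-0.17 ± 0.10, limma adjusted p = 0.719), and without Control replicate 3 the log2 difference was -0.078. The 2 groups overlapped in both genes.

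**Figure D4:**
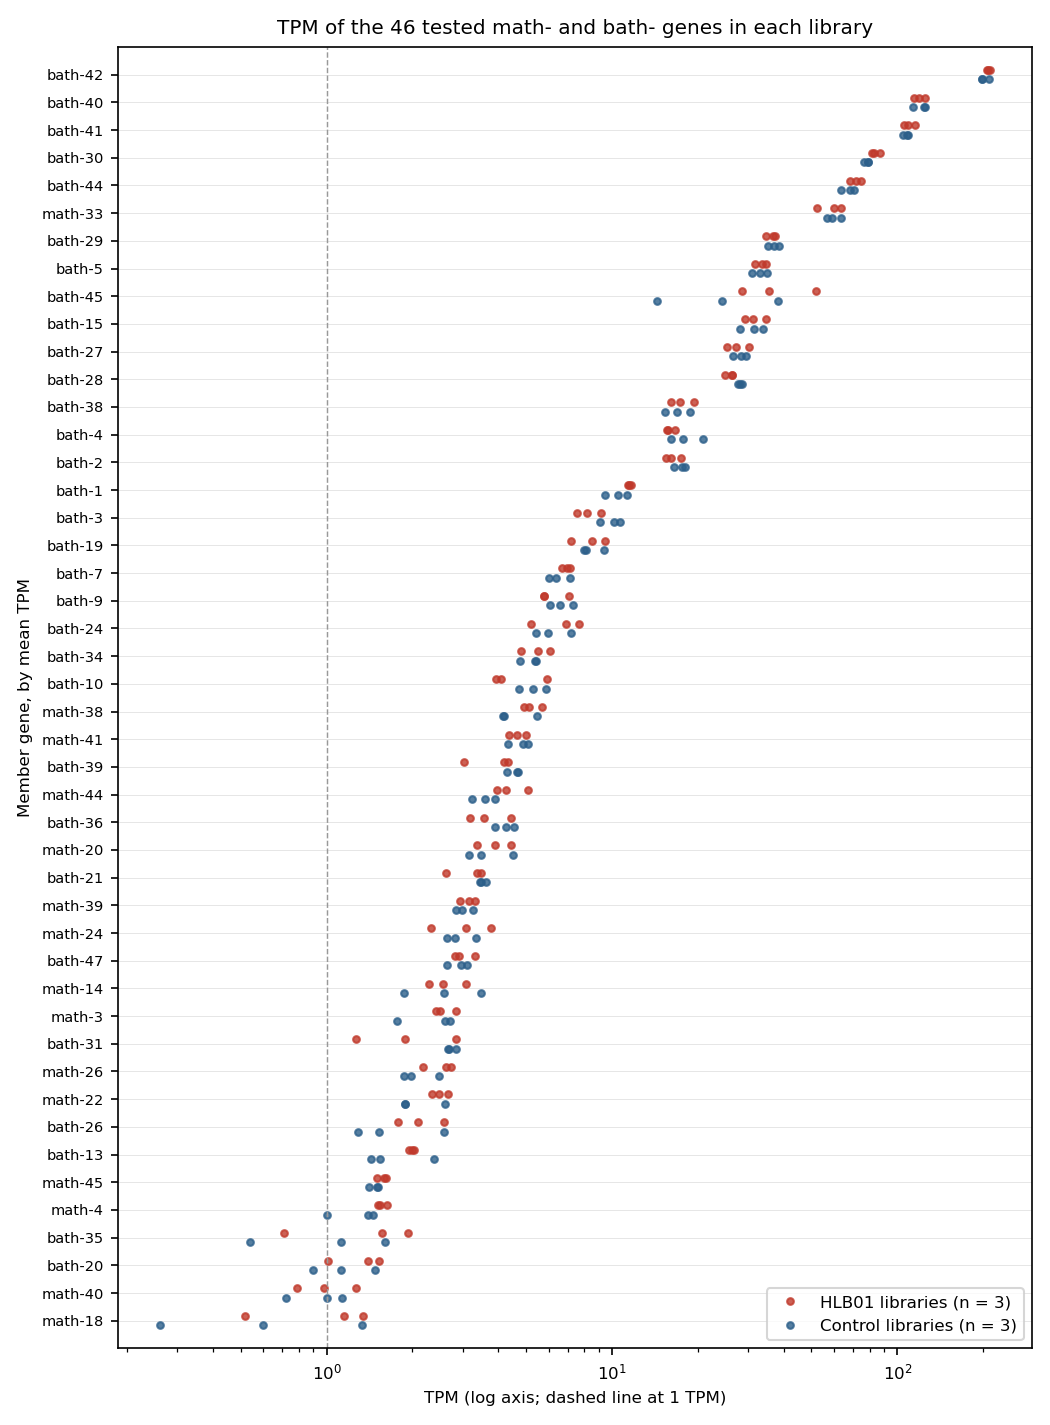
TPM of each of the 46 tested genes in every library on a logarithmic axis, sorted by mean level, with HLB01 libraries (red, n = 3) above Control libraries (blue, n = 3) and a dashed line at 1 TPM. The levels run from 0.26 TPM in 1 library of math-18 to 212 TPM in 1 library of bath-42, and for most genes the red and blue points lie over each other.

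The signs of the differences were uneven between the symbols. Of the 15 tested math- genes 13 had a positive log2 difference, while 17 of 31 tested bath- genes and 48.7% of all tested genes did. The 2 negative ones were math-33 and math-41, and the largest positive one was that of math-44. Across the scalings tried, 13 or 14 of the 15 were positive, 11 were with array weights, and 11 to 13 were when any 1 library was left out. In the same settings, 17 or 18, 16, and 14 to 18 of the 31 bath- genes were positive. Of all tested genes, 49.3% to 52.5%, 50.9%, and 43.9% to 53.9% were. With no filter on low values 25 of 36 math- genes were positive, against 20 of 36 bath- genes. At a filter of 5 TPM 1 of 2 math- genes was positive, against 12 of 22 bath- genes. All 8 tested members with a mean under 2 TPM were positive, 4 of them bath- and 4 math- genes. Without math-33, the 36 other math- genes summed to 44.9, 42.9 and 47.2 TPM in HLB01 libraries, against 41.8, 42.1 and 39.6 TPM in Control libraries. These sums did not overlap between the groups, with means of 44.98 ± 2.14 TPM in HLB01 and 41.2 ± 1.39 TPM in Control libraries (SD, n = 3 each), a ratio of 1.09. With median-of-ratios scaling the ratio was 1.10 and the groups overlapped. No single math- gene passed the test. The sum was chosen after the values were seen, and neither the sum nor the split of signs by symbol was tested.

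Of the 27 genes below the filter, 22 were math- and 5 were bath- genes, 25 stayed under 1 TPM in every library and 10 had a mean under 0.1 TPM. Just inside the filter, math-40 had 0.98, 0.79 and 1.27 TPM in HLB01 libraries, against 1.00, 1.13 and 0.72 TPM in Control libraries, and math-18 is given above. Just outside it, math-34 had 1.00, 0.99 and 1.17 TPM in HLB01 libraries, against 0.69, 0.68 and 0.92 TPM in Control libraries, and math-46 had 1.02, 0.56 and 0.96 TPM in HLB01 libraries, against 1.04, 0.98 and 0.85 TPM in Control libraries. The values of math-34 did not overlap between the groups, and those of math-40 and math-46 did. With no filter on low values, 0 of 72 members with any TPM passed, and the smallest p was that of math-31 (limma adjusted p = 0.547). It had 0.40 TPM in HLB01 replicate 1 and was listed at 0 in the other two HLB01 libraries, against 0.84, 0.85 and 0.40 TPM in Control libraries.

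Some members overlap another gene between annotated start and end, introns included, so their values may be less certain. On the same strand math-3 and math-26 overlap by 2858 bases, and they averaged 2.59 and 2.51 TPM in HLB01 libraries, against 2.36 and 2.11 TPM in Control libraries. On opposite strands bath-26 and bath-46 share 28 bases, and bath-47 and bath-33 share 22 bases. Other members overlap tested genes outside the family. On its own strand bath-21 shares 942 bases with cya-2 (means of 2.86 TPM in HLB01 and 2.13 TPM in Control libraries). Likewise bath-39 shares 68 bases with F25H9.2 (7.48 and 6.62 TPM), which lay above bath-39 in both groups. Across strands bath-21 shares 843 bases with a pseudogene (17.96 and 16.01 TPM), and bath-29 shares 1311 bases with F14D2.8 (4.48 and 3.97 TPM). Of the tested members 0 repeated the values of another tested gene in all libraries. How reads of similar tandem copies were divided could not be checked from TPM.

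No gene of the machinery that such adaptors serve passed the test either. Over all tested genes 0.397% were called and 8.32% had an unadjusted p below 0.05, so a count of 0 called in a list this short is close to the background. Of 15 tested genes of the CUL-3 ligase core and of neddylation, the attachment of the ubiquitin-like protein NED-8 that switches cullins on, 0 rose and 0 fell and 0 had an unadjusted p below 0.05 (limma), with a median log2 difference of -0.00098. The scaffold gene cul-3 had 134, 141 and 146 TPM in HLB01 libraries, against 142.4, 132 and 147 TPM in Control libraries (log2 difference -0.0025 ± 0.05, limma adjusted p = 0.993). The groups overlapped in cul-3, and among the 15 the smallest p was that of rbx-1, the RING subunit, with 477, 462 and 473 TPM in HLB01 libraries, against 454, 454 and 455 TPM in Control libraries (0.05 ± 0.03, limma adjusted p = 0.753). The HLB01 values of rbx-1 lay wholly above its Control values. After it came csn-4 of the COP9 signalosome (0.09 ± 0.06, limma adjusted p = 0.785) and rfl-1 of the NED-8 activating enzyme (0.06 ± 0.05, limma adjusted p = 0.817).

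Of 24 tested BTB adaptor genes without these symbols, 0 rose and 0 fell and 2 had an unadjusted p below 0.05 (limma), with a median log2 difference of -0.033. Both counts are near the same background of 0.397% and 8.32%. The smallest p was that of mel-26, which had 168, 173 and 175 TPM in HLB01 libraries, against 160, 154 and 163 TPM in Control libraries. The groups did not overlap, and the log2 difference of 0.11 ± 0.04 did not pass (unadjusted p = 0.0219, limma adjusted p = 0.463). The kelch-type genes kel-1 (-0.41 ± 0.16, limma adjusted p = 0.56) and kel-8 (0.23 ± 0.10, limma adjusted p = 0.611) followed, with opposite signs. The substrate gene mei-1 had 100.3, 98.6 and 107 TPM in HLB01 libraries, against 109, 101 and 103 TPM in Control libraries (-0.03 ± 0.05, limma adjusted p = 0.897). Of the 5 genes listed for MEL-26, the katanin subunits mei-1 and mei-2 and their regulators mbk-2 and ppfr-1, with mel-26 counted again, 0 passed and 1 had an unadjusted p below 0.05 (limma), with a median of 0.036, and ppfr-1 was at 0.04 ± 0.06 (limma adjusted p = 0.906). Likewise 0 of 5 other cullin genes passed, and 0 had an unadjusted p below 0.05 (limma), with a median of 0.02. The smallest p were those of cul-6 (0.14 ± 0.12, limma adjusted p = 0.822), cul-2 (0.03 ± 0.04, limma adjusted p = 0.881) and cul-1 (-0.04 ± 0.06, limma adjusted p = 0.897).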

How the data were processed

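The 6 libraries were made from total RNA, and ribosomal RNA took 530 to 4895 TPM in them. Whether it was depleted, or other RNA selected, before sequencing is not stated here. The deposited TPM values were made by the authors, with 1 column per library and 2 decimals. The submitters' processing notes name fastp, HISAT, RSEM and the build WBcel235. Versions, roles, annotation release, strand setting and filters are not given in the sources used here. Symbols came from a gene name table (43818 of 46778 identifiers), and coordinates from Ensembl release 115 of the same build, which held all 73 members. Members, gene lists and tests were chosen with earlier results of these data known.

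Genes with at least 1 TPM in 3 or more libraries were fitted as log2(TPM + 1), HLB01 against Control, in limma 3.58.1 (R 4.3.3), checked on simulated data. The members given per library are any past the threshold or with an unadjusted p below 0.05, the 5 highest in mean TPM, the 4 highest and 4 lowest log2 differences, math-33, bath-40 to bath-44 where present, and those at the edge of the filter; bath-28, bath-1, bath-5, math-31 and the genes named for their place in a block or an overlap were chosen after their values were seen. From each pathway list the 3 genes with the smallest p are named, and cul-3 outside that rule. Alternatives were the variance model, library weights, scaling, pseudocount, filter, replicate block and leaving out each library. No sequence is shown, as none was used here.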

Additional observations from a re-analysis of the deposited data

How the results depend on the processing

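In each of the 16 alternatives, 0 members and 0 of the other pathway genes passed in either direction, and the smallest adjusted p of a member was 0.414 (limma, without HLB01 replicate 2). All genes tested gave 22 calls with no filter, 27 without the trend and 80 with array weights, against 50, and 19 to 32 with 1 library left out. The median log2 difference of the members, 0.045, was 0.052 when 0.1 was the pseudocount and 0.022 when 5 was. It was 0.021 at a filter of 5 TPM, and 0.016 to 0.057 with 1 library left out. Of 234 values of 15 named members, 223 kept their sign and 11 turned, and the cause was not tested. Without the trend, with another filter and with the replicate block, the log2 difference of a gene is unchanged by construction. In those settings its sign could not turn, so they add to the 223 without being a check. With array weights math-33 was at 0.016 and math-40 at -0.0013. With 1 library left out, bath-40 ranged from -0.063 to 0.0096, bath-41 from -0.00048 to 0.063, math-33 from -0.0898 to 0.049, math-40 from -0.045 to 0.13 and bath-35 from -0.0024 to 0.43. Members with an unadjusted p below 0.05 numbered 0 to 4.

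With the replicate number as a block, 0 members and 0 of the pathway genes passed in either direction. The smallest adjusted p of a member was 0.562 (limma), and 48 of all tested genes were called. The members' median stayed at 0.045, as it must in this balanced design. Deviations from the group means correlated at -0.013, 0.038 and 0.127 between libraries numbered 1, 2 and 3. Libraries of unlike number ranged from -0.158, for HLB01 replicate 3 with Control replicate 2, to 0.142, for HLB01 replicate 1 with Control replicate 2. Whether the numbers stand for a shared culture or batch is not given, and these values cannot decide it.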

Other observations

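Within libraries, the TPM of bath-30 divided by that of its neighbour bath-28 was 3.33, 3.10 and 3.30 in HLB01 libraries, against 2.77, 2.78 and 2.80 in Control libraries. The means were 3.24 ± 0.12 in HLB01 and 2.78 ± 0.016 in Control libraries (SD, n = 3 each), and the groups did not overlap. This pair was chosen after its values were seen, so the difference is a description with no test. All HLB01 values lay above the Control values for bath-30 and below them for bath-28. Ratios without overlap were therefore fixed by the choice of the pair.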
